A study of Homo sapiens with 18 samples.

Results

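Cytosolic aminoacyl-tRNA synthetases, the enzymes that load each tRNA with its amino acid, were followed through the silencing of the mitotic kinase MPS1 (gene TTK) in U251 cells, an established human glioblastoma line. The set was given as 10 listed gene symbols, AARS1, CARS1, EPRS1, GARS1, IARS1, MARS1, NARS1, SARS1, WARS1 and YARS1, matched through the array's annotation. Of the 10 genes, 9 had a probe set that named them alone, out of 11963 genes so named on the array. All 3 probe sets of MARS1, the methionine enzyme, also named the microRNA gene MIR6758, so no value is given for MARS1. The study compared cells given an siRNA against MPS1 (siMPS1), cells transfected with a non-targeting negative siRNA (siNeg) and cells left untransfected (Control), at 6, 24 and 48 h after transfection. Each of the 9 groups had 2 Affymetrix human gene expression arrays, 18 in all. Both transfected groups received 2 pmol of siRNA, and Control cells received no treatment. All cells were U251, so every comparison rests on 1 line, and the sources used here do not give the siRNA sequences.

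A synthetase activates its amino acid with ATP and transfers it to the matching tRNA, which the ribosome then uses. Some of these enzymes, among them EPRS1, IARS1 and MARS1, sit in a large multi-synthetase complex held by the scaffold proteins AIMP1, AIMP2 and EEF1E1, whereas the others act outside it. Several synthetase genes are known targets of ATF4, the transcription factor made when the kinases of the integrated stress response phosphorylate eIF2α. ATF4 pairs with C/EBP proteins at composite sites that also lie in the genes of amino acid transporters and biosynthetic enzymes.

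Promoter sequences are shown because the core of that composite site can be read in them directly. The stretch from 250 bases before to 50 after the annotated start was available for 9 of the 10 genes in the RefSeq promoter sequences used here (build GRCh38.p14). Those sequences held no entry for YARS1, although RefSeq gives the gene a location. The motif searched was TGATGNAA on both strands, which reads TTNCATCA on the other strand. It was present in 6 of the 9 genes, AARS1, CARS1, GARS1, IARS1, MARS1 and NARS1, and these letters were not in the windows of EPRS1, SARS1 and WARS1. Some genes had more than 1 annotated start, and the 9 genes had 13 entries. CARS1 and GARS1 each also had an entry without the motif. Across all genes with an entry 4.46% held it, and across all 35116 entries 3.62%. A match is a string of letters and no measure of binding. The stretches below run 5′ to 3′ on the strand of the gene, with the motif in capitals. AARS1 lies at chr16:70289645-70289734 (minus strand), CARS1 at chr11:3057418-3057513 (minus), IARS1 at chr9:92293698-92293787 (minus) and NARS1 at chr18:57621804-57621833 (minus). EPRS1 at chr1:220046506-220046595 (minus) is given as the stretch next to the start of a gene without the motif.
AARS1: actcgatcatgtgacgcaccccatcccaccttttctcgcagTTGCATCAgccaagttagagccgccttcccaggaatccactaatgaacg
CARS1: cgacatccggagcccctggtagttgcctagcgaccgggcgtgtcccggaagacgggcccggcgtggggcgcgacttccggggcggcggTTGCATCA
IARS1: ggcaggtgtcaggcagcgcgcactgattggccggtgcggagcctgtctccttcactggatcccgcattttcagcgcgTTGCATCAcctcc
NARS1: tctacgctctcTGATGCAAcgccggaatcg
EPRS1: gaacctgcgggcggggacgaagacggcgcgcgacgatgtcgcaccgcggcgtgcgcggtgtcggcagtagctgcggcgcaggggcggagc
The motif lay from -187 to -180 in AARS1 and from -13 to -6 in IARS1, counted from the start. It spanned the start itself in the CARS1 entry that held it, from -2 to 6, and lay downstream of the start in NARS1, from 15 to 22.

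Values are given as log2(signal + 3), where signal is the deposited MAS5 expression value returned to a linear scale and 3 is a pseudocount, and a difference of 2 such values is a log2 fold change. The differences were fitted with limma over all 18 arrays and 7828 genes, all 9 measured synthetases having passed the filter on dim probe sets, and calls were made at a Benjamini-Hochberg adjusted p under 0.05, two-sided. Fold changes on this scale understate changes of dim genes. TTK, the silenced gene, was called lower in siMPS1 than in siNeg at all 3 times, with log2 differences of -1.43 at 6 h, -1.88 at 24 h and -2.30 at 48 h. The glioma and astrocyte markers VIM and CD44 were bright, with median deposited log2 values of 11.9 and 11.5, while GFAP was dim at 3.65 and S100B did not pass the filter. The neuronal markers SYT1 and SNAP25 passed it, and none of the listed blood, epithelial or endothelial markers on the array did. The labels do not say whether arrays of a group came from separate cultures, so p-values measure the spread between these arrays, which may be technical. Less RNA per cell and fewer expressing cells cannot be told apart in such bulk samples.

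The array's own controls set several groups apart, among them siMPS1 at 48 h and siNeg at 24 and 48 h. The 3′ minus 5′ log2 difference of the ACTB control probe sets was 0.87 and 0.92 in siMPS1 at 48 h, against 0.10 and 0.14 in siNeg and 0.16 and 0.24 in Control. For GAPDH it was 0.29 and 0.30 in siMPS1, against 0.08 and 0.01 in siNeg and -0.03 and -0.03 in Control. The mean log2 signal of the 18S rRNA control sets was 11.13 in siMPS1, 9.47 in siNeg and 10.17 in Control at 48 h, so that siNeg lay apart as well, on the low side. At 24 h it was 10.30 and 10.41 in siMPS1, against 11.15 on both siNeg arrays and 10.17 and 10.20 in Control, so that siNeg was then the high group. The 24 h differences of ACTB were 0.43 on both siMPS1 arrays, against 0.41 and 0.40 in siNeg and 0.33 and 0.29 in Control. At 6 h the 18S signal was 10.32 and 10.41 in siMPS1, against 10.04 and 10.12 in siNeg and 10.14 and 10.18 in Control. These control values moved with the groups in the comparisons below at 6, 24 and 48 h and in the changes between those times. Their part in the results was not tested.

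At 48 h 5 of the 9 synthetases, AARS1, CARS1, EPRS1, NARS1 and YARS1, were called higher in siMPS1 than in siNeg and 0 were called lower. The background was wide, since 15.7% of the 7828 genes were called higher and 13.5% lower in that comparison. The median difference of the 9 genes was 0.26, against 0.03 over all genes tested, and 7 of the 9 differences were positive. Against Control at the same time 4 were called higher (AARS1, CARS1, WARS1 and YARS1) and 0 lower, with 15.3% of all genes higher and 12.2% lower, and a median of 0.17 against 0.05. For WARS1 the call holds for the brighter of its probe sets alone. The other was called lower than in Control, and their mean was not called (0.08, adjusted p = 0.656). The 2 comparisons share the siMPS1 arrays.

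**Figure D1:**
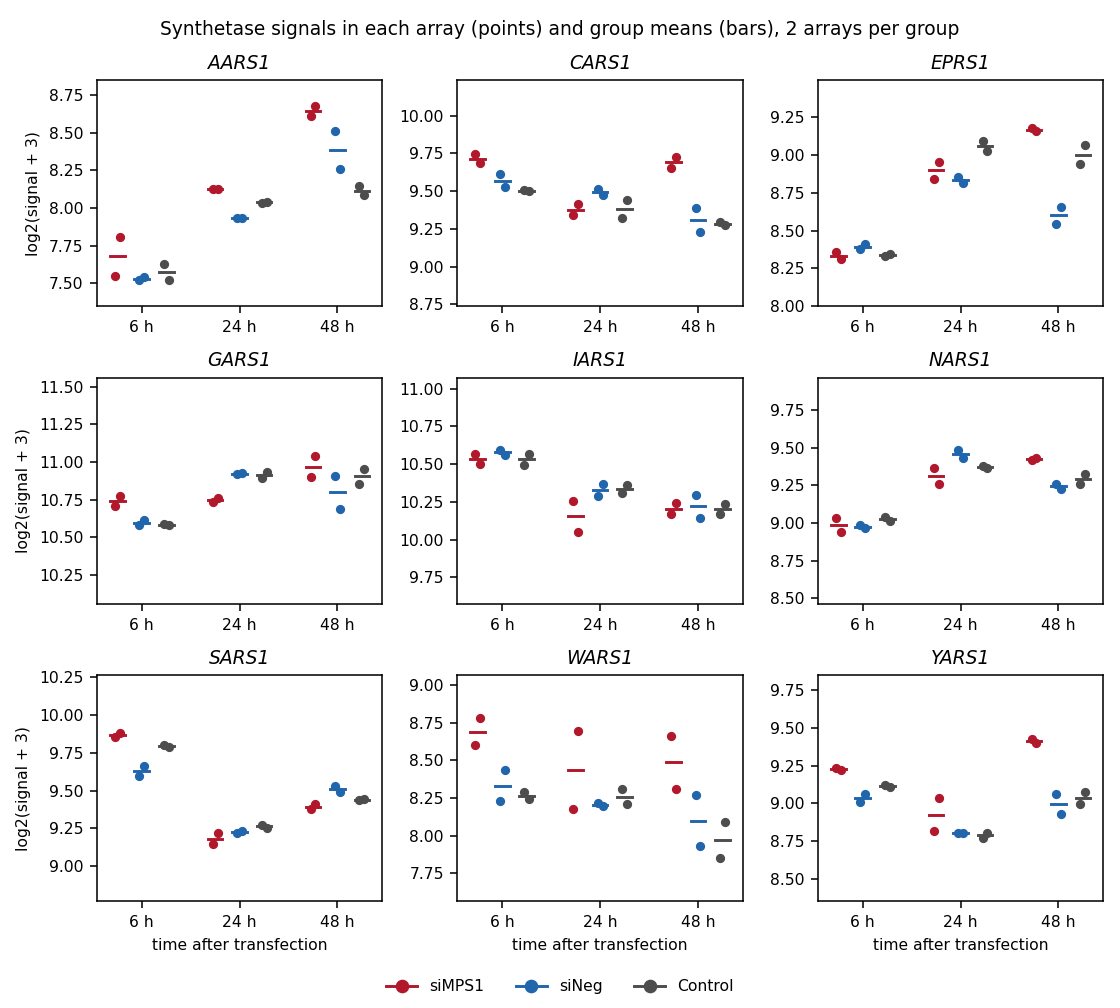
Level of each of the 9 measured synthetases as log2(signal + 3) at 6, 24 and 48 h after transfection, with 1 point per array, a bar at the mean of the 2 arrays, and siMPS1, siNeg and Control from left to right at each time. At 48 h both siMPS1 arrays lie above both siNeg arrays for EPRS1, CARS1, YARS1, AARS1, NARS1 and, narrowly, WARS1. The groups overlap for IARS1 and GARS1, and siMPS1 is lowest for SARS1.

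Among the enzymes of the multi-synthetase complex, EPRS1, which charges tRNAs with glutamate and with proline from a single polypeptide, showed the largest difference of the 9 from siNeg at 48 h. Its levels were 9.18 and 9.16 in siMPS1, 8.55 and 8.66 in siNeg, and 8.94 and 9.07 in Control. Both siMPS1 arrays were above all others, the siNeg arrays were the lowest, and Control lay between them. EPRS1 was 1.48-fold higher in siMPS1 than in siNeg (log2 difference 0.57 ± 0.07 SE, limma adjusted p = 4.9e-06). The difference from Control was 0.17 ± 0.07 and missed the threshold (adjusted p = 0.072). EPRS1 was lower in siNeg than in Control (-0.40 ± 0.07, adjusted p = 0.00061), and it was the only synthetase called in siNeg minus Control at 48 h, where 6.82% of all genes were called higher and 6.11% lower. IARS1, the isoleucine enzyme, had 10.17 and 10.24 in siMPS1, 10.30 and 10.15 in siNeg, and 10.17 and 10.24 in Control at 48 h, and the 3 groups overlapped. Its difference from siNeg was -0.02, with a 95% confidence interval from -0.17 to 0.13.

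Among the class I enzymes outside the complex, CARS1, which charges cysteine tRNA, had 9.65 and 9.73 in siMPS1 at 48 h, against 9.39 and 9.23 in siNeg and 9.30 and 9.27 in Control. Both siMPS1 arrays exceeded the other 4. CARS1 was higher by 0.38 ± 0.07 than in siNeg (adjusted p = 0.00025) and by 0.41 ± 0.07 than in Control (adjusted p = 0.0002). YARS1, the tyrosine enzyme, had 9.43 and 9.40 in siMPS1, 9.06 and 8.93 in siNeg, and 8.99 and 9.07 in Control. Again the siMPS1 arrays did not overlap the rest, with differences of 0.42 ± 0.07 from siNeg (adjusted p = 0.00021) and 0.38 ± 0.07 from Control (adjusted p = 0.00066). WARS1, the tryptophan enzyme and a known interferon-gamma-induced gene, had 8.66 and 8.31 in siMPS1, 8.27 and 7.93 in siNeg, and 7.85 and 8.09 in Control. Both siMPS1 arrays lay above the other 4, the lower of them narrowly. The difference of 0.39 ± 0.15 from siNeg missed the threshold (adjusted p = 0.058), while that of 0.52 ± 0.15 from Control passed it (adjusted p = 0.014). These values are those of the brighter WARS1 probe set, and the other ran the other way at 48 h.

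Of the class II enzymes, AARS1, which charges alanine tRNA, had 8.61 and 8.68 in siMPS1 at 48 h, 8.51 and 8.26 in siNeg, and 8.14 and 8.09 in Control. The 3 groups did not overlap and stood in that order. AARS1 was higher by 0.26 ± 0.09 than in siNeg (adjusted p = 0.036) and by 0.53 ± 0.09 than in Control (adjusted p = 0.0003). NARS1, the asparagine enzyme, had 9.42 and 9.43 in siMPS1, 9.26 and 9.23 in siNeg, and 9.26 and 9.33 in Control. The difference from siNeg was 0.18 ± 0.06 (adjusted p = 0.028), and that from Control was 0.13 ± 0.06 (adjusted p = 0.10). GARS1, which serves both cytosol and mitochondria with glycyl-tRNA, had 10.90 and 11.04 in siMPS1, 10.91 and 10.69 in siNeg, and 10.85 and 10.96 in Control, so the groups overlapped (0.17 from siNeg, 95% interval 0.03 to 0.32, adjusted p = 0.069). SARS1, the serine enzyme, ran the other way, with 9.38 and 9.41 in siMPS1, 9.53 and 9.49 in siNeg, and 9.43 and 9.45 in Control (-0.12 from siNeg, 95% interval -0.23 to -0.0016, adjusted p = 0.12). At 48 h the siMPS1 arrays were thus the lowest of the 6 for SARS1. They were the highest for EPRS1, CARS1, YARS1, AARS1, NARS1 and, with the probe set used here, WARS1.

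The calls of EPRS1, CARS1 and YARS1 against siNeg at 48 h were kept in all 10 alternative settings and in all 18 fits that left out 1 array. That of AARS1 was lost without siMPS1 replicate 1 (adjusted p = 0.0746), siMPS1 replicate 2 (0.166) or siNeg replicate 2 (0.384, difference 0.13), and that of NARS1 without any 1 of the 4 siMPS1 and siNeg arrays of 48 h (0.0644 to 0.119). Both were also lost without an intensity trend in the variances (AARS1 0.0707, NARS1 0.0573) and when the fit held just the 2 groups (0.0705 and 0.117), AARS1 when dim probe sets were kept (0.0514), and NARS1 under median centring (0.0979). WARS1 against Control lost its call without siMPS1 replicate 1 (difference 0.34) or Control replicate 1 (difference 0.40). It also lost it without the intensity trend (adjusted p = 0.0539) and with the mean of its probe sets (difference 0.08, adjusted p = 0.656).

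**Figure D2:**
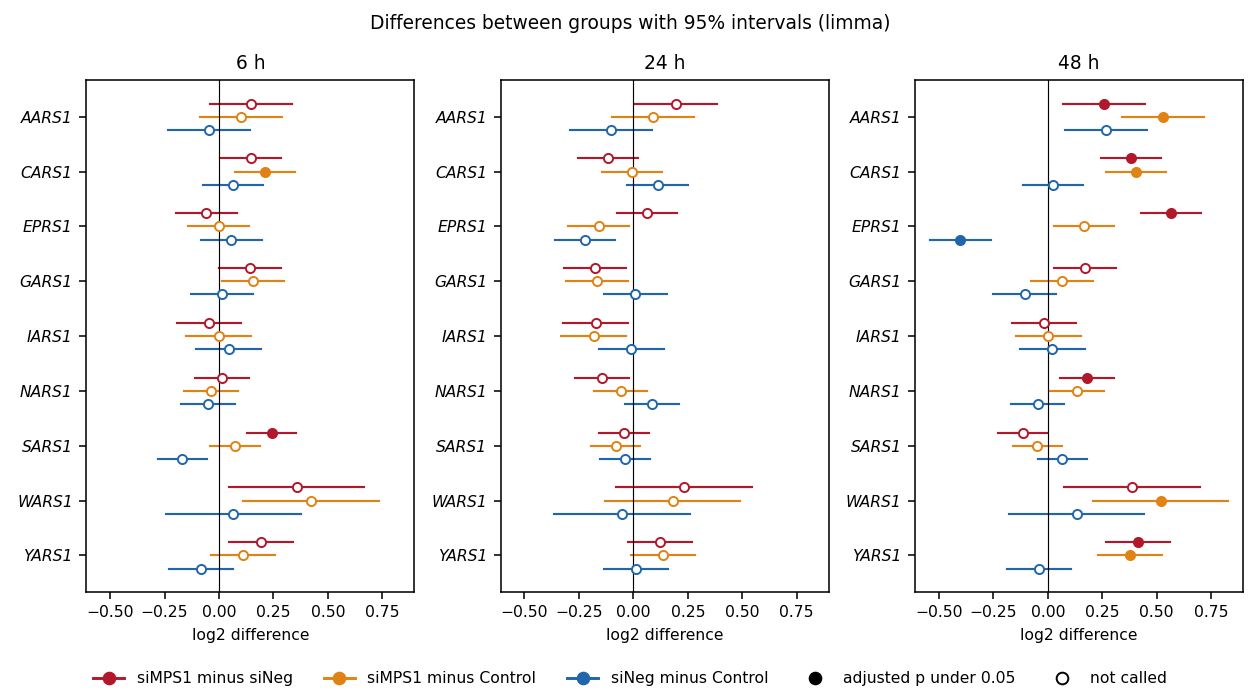
Log2 differences (horizontal axis) of the 9 synthetases for siMPS1 minus siNeg, siMPS1 minus Control and siNeg minus Control at 6, 24 and 48 h, as points with 95% confidence intervals from the limma fit, filled where the adjusted p was under 0.05. The 48 h panel holds 5 filled points for siMPS1 minus siNeg and 4 for siMPS1 minus Control, all positive, and the single filled siNeg minus Control point is EPRS1 at -0.40.

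At 6 h 1 of the 9 synthetases was called higher in siMPS1 than in siNeg and 0 lower, with 3.45% of all genes higher and 4.25% lower. That gene was SARS1, with 9.85 and 9.88 in siMPS1, 9.59 and 9.66 in siNeg, and 9.80 and 9.79 in Control. The siNeg arrays were the low ones, and the difference of 0.24 ± 0.05 from siNeg (adjusted p = 0.0143) stood beside one of 0.07 ± 0.05 from Control (adjusted p = 0.361). The SARS1 call was lost without siMPS1 replicate 2 (adjusted p = 0.107), siNeg replicate 1 (0.124) or siNeg replicate 2 (0.0524). Against Control 1 gene was again called higher and 0 lower at 6 h, with 9.29% of all genes higher and 7.28% lower. It was CARS1, at 9.74 and 9.68 in siMPS1 and 9.51 and 9.50 in Control (0.21 ± 0.07, adjusted p = 0.037). The CARS1 call was lost without any 1 of these 4 arrays (differences from 0.18 to 0.24) and under median centring of the arrays (0.02, adjusted p = 0.874). It was also lost with the mean of both CARS1 probe sets (0.07, adjusted p = 0.572), without the filter (0.0530) and without the intensity trend (0.0837). WARS1 had 8.60 and 8.78 in siMPS1, 8.23 and 8.43 in siNeg, and 8.29 and 8.24 in Control at 6 h, and neither difference was called (0.36 ± 0.15, adjusted p = 0.15, and 0.42 ± 0.15, adjusted p = 0.0574). The median difference of the 9 genes from siNeg was 0.15 at 6 h, against 0.01 over all genes. The array's Alu control had a log2 signal of 12.9 and 13.0 in siMPS1 at 6 h, against 12.5 on both siNeg arrays and 12.4 on both Control arrays, and its part in these differences was not tested.

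At 24 h none of the 9 was called between siMPS1 and siNeg by limma, although 3 reached an unadjusted p under 0.05 downward (GARS1, IARS1 and NARS1) and 1 upward (AARS1). The background was 5.14% of all genes higher and 5.81% lower. The 18S control averaged 10.36 in siMPS1, 11.15 in siNeg and 10.18 in Control at 24 h, and its part was not tested. Levels of GARS1 were 10.74 and 10.76 in siMPS1, against 10.92 and 10.93 in siNeg and 10.90 and 10.93 in Control. Both siMPS1 arrays were below the other 4, by a difference of -0.18 ± 0.07 from siNeg (adjusted p = 0.115). AARS1 was at 8.13 on both siMPS1 arrays, 7.93 on both siNeg arrays and 8.04 on both Control arrays (0.19 ± 0.09 from siNeg, adjusted p = 0.185). Against Control 0 of the 9 were called at 24 h, with 5.48% of all genes higher and 7.19% lower and unadjusted p under 0.05 for EPRS1, GARS1 and IARS1, all downward. Without siMPS1 24 h replicate 1, IARS1 (-0.28) and WARS1 (0.49) passed the threshold against siNeg. Under quantile normalization GARS1 (-0.23, adjusted p = 0.0085) and IARS1 (-0.22, adjusted p = 0.0395) were called lower than in siNeg. Both were then also called lower than in Control (-0.27 and -0.26, adjusted p = 0.0025 and 0.0144). Under median centring YARS1 was called higher than in Control (0.21, adjusted p = 0.0437).

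Between the control groups, siNeg minus Control gave 0 called synthetases at 6 h, with 2.84% of all genes higher and 0.984% lower, and SARS1 at an unadjusted p under 0.05 (-0.17 ± 0.05, adjusted p = 0.0959). At 24 h it again gave 0, with 0.46% of all genes higher and 0.473% lower, and EPRS1 at an unadjusted p under 0.05 (-0.22 ± 0.07, adjusted p = 0.0954). Besides EPRS1, AARS1 lay near the threshold at 48 h, 0.27 ± 0.09 higher in siNeg than in Control (adjusted p = 0.057).

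The difference between siMPS1 and siNeg was itself compared between times. From 24 to 48 h it grew for 4 of the 9 genes and shrank for 0, while 8.93% of all genes passed that test upward and 6.83% downward. Across the same times the 18S control averaged 10.36 in siMPS1 against 11.15 in siNeg at 24 h, and 11.13 in siMPS1 against 9.47 in siNeg at 48 h, and its part was not tested. The change was 0.50 ± 0.09 for EPRS1 (adjusted p = 0.00128), 0.50 ± 0.09 for CARS1 (0.0013), 0.35 ± 0.10 for GARS1 (0.0206) and 0.32 ± 0.08 for NARS1 (0.0126). For CARS1, GARS1 and NARS1 it joined a negative difference at 24 h to a positive one at 48 h. YARS1 missed the threshold at 0.29 ± 0.10 (adjusted p = 0.0515). The GARS1 call was lost on leaving out siNeg 24 h replicate 1 (change 0.35) or 2 (0.34), or replicate 2 of siMPS1 (0.28) or siNeg (0.24) at 48 h. It was also lost without the intensity trend (adjusted p = 0.0715) and when the fit held just the compared groups (adjusted p = 0.0719). That of NARS1 was lost without siMPS1 24 h replicate 2 (0.27) or siNeg 24 h replicate 1 (0.30). From 6 to 24 h only SARS1 passed, at -0.28 ± 0.08 (adjusted p = 0.0462), against 1.89% of all genes upward and 1.8% downward, and 13 of the 18 fits without 1 array lost it (0.0543 to 0.169). From 6 to 48 h EPRS1 passed upward (0.62 ± 0.09, adjusted p = 0.00017) and SARS1 downward (-0.36 ± 0.08, adjusted p = 0.0031), with 10.9% of all genes upward and 9.3% downward.

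Most of these genes also differed between times, in siMPS1, siNeg and Control cells alike. From 6 to 24 h 3 synthetases rose and 4 fell in siMPS1 cells (background 26.4% higher and 21.1% lower), 4 rose and 3 fell in siNeg cells (25.2% and 19.1%), and 4 rose and 3 fell in Control cells (27.1% and 15.9%). In every treatment AARS1, EPRS1 and NARS1 were called higher at 24 h and IARS1, SARS1 and YARS1 lower. Of these, the fall of IARS1 in Control cells (-0.20, adjusted p = 0.030) was lost without any 1 of the 4 arrays compared (adjusted p up to 0.177), under quantile normalization, without the filter and without the intensity trend. In siNeg cells the fall of IARS1 was lost without replicate 1 of 6 h or of 24 h (up to 0.0750), and that of YARS1 without replicate 2 of 6 h or either replicate of 24 h (up to 0.0776). EPRS1 rose by 0.57, 0.44 and 0.72 on the log2 scale in siMPS1, siNeg and Control cells, and SARS1 changed by -0.69, -0.40 and -0.53. GARS1 changed by 0.01 in siMPS1 cells, a difference that was not called, against called rises of 0.32 in siNeg and 0.33 in Control cells.

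From 24 to 48 h 6 of the 9 rose and 0 fell in siMPS1 cells, where 12.6% of all genes rose and 11.8% fell. AARS1 rose by 0.52, YARS1 by 0.49, CARS1 by 0.32, EPRS1 by 0.27, GARS1 by 0.22 and SARS1 by 0.21. That count fell to 3 without siMPS1 24 h replicate 1. In siNeg cells 3 rose (AARS1 0.45, SARS1 0.29 and YARS1 0.19) and 3 fell (CARS1 -0.19, EPRS1 -0.23 and NARS1 -0.21), with 13.6% of all genes rising and 15.6% falling, and the count of called genes fell to 2 without siNeg 24 h replicate 1. In Control cells 2 rose (SARS1 0.18 and YARS1 0.25) and 0 fell, with 8% of all genes rising and 11.6% falling. That count was 0 or 1 whenever 1 of the 4 Control arrays compared was left out.

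**Figure D3:**
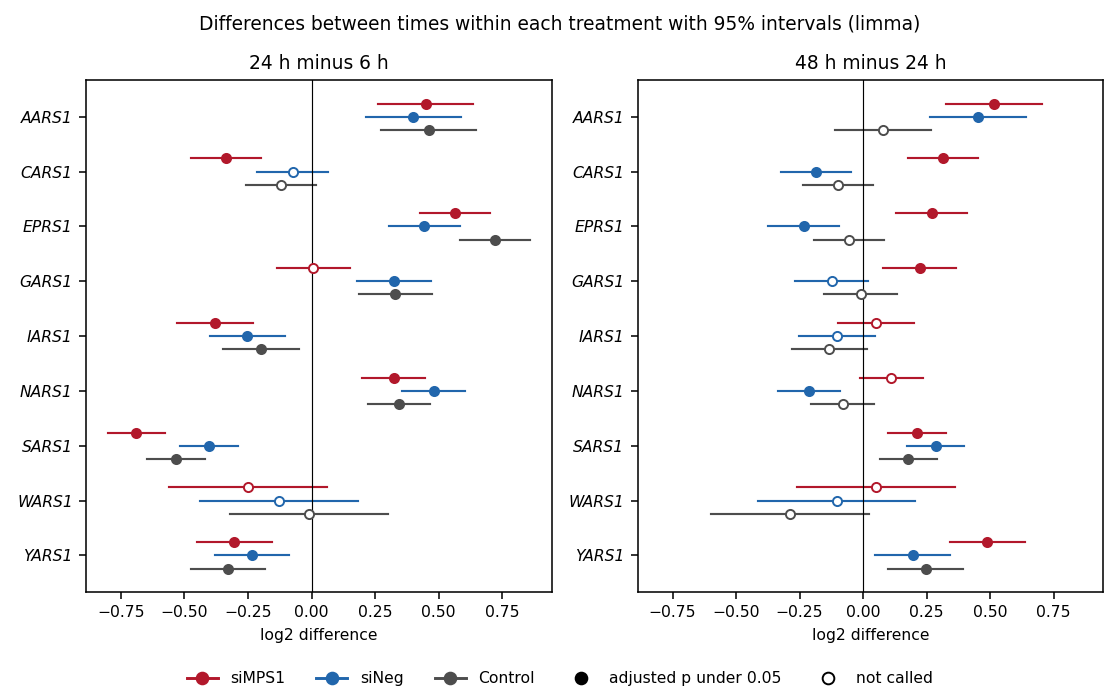
Log2 differences between times for each synthetase, 24 h minus 6 h on the left and 48 h minus 24 h on the right, within siMPS1, siNeg and Control cells, as points with 95% confidence intervals from the limma fit, filled where the adjusted p was under 0.05. On the left AARS1, EPRS1 and NARS1 lie above 0 and SARS1, IARS1 and YARS1 below it in all 3 treatments, and on the right CARS1 and EPRS1 are positive in siMPS1 (0.32 and 0.27) and negative in siNeg (-0.19 and -0.23).

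Of the 13 probe sets that named a synthetase alone, 7 were called higher and 1 lower in siMPS1 than in siNeg at 48 h, in a fit over 11824 probe sets of which 14.7% were called higher and 14.2% lower. At 6 h 1 was higher and 0 lower (3.02% and 3.98% of all probe sets), and at 24 h none was called (4.59% and 5.51%). All 3 probe sets of EPRS1 were called higher at 48 h, by 0.86 ± 0.16 (200841_s_at), 0.57 ± 0.07 (200842_s_at) and 0.29 ± 0.07 (200843_s_at), with adjusted p of 0.000485, 5.46e-06 and 0.00331. The dim probe set 200841_s_at had 6.94 and 6.89 in siMPS1, 6.18 and 5.94 in siNeg, and 6.68 and 6.89 in Control. The group means stood in the same order as with the brightest probe set. At 24 h the lower EPRS1 signals against Control, described above with 200842_s_at, were not seen with 200843_s_at. It had 8.55 and 8.56 in siMPS1, 8.67 and 8.59 in siNeg, and 8.54 and 8.59 in Control. At that time 200841_s_at had 6.35 and 6.64 in siMPS1, 6.68 and 6.71 in siNeg, and 6.84 and 6.68 in Control.

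The 2 probe sets of WARS1 disagreed in direction. The brighter, 200629_at, is the one described above, at 0.39 ± 0.15 against siNeg at 48 h (adjusted p = 0.0601 among probe sets). The other, 200628_s_at, had 6.97 and 6.79 in siMPS1, 7.26 and 7.25 in siNeg, and 7.10 and 7.37 in Control, and was called lower than in siNeg (-0.38 ± 0.12, adjusted p = 0.0217) and than in Control (-0.35 ± 0.12, adjusted p = 0.0331). Averaging both probe sets gave differences of 0.00 from siNeg and 0.08 from Control, neither called, so no direction is given for WARS1 as a gene. For CARS1 the dimmer probe set 202402_s_at had 7.01 and 7.10 in siMPS1, 6.88 and 6.91 in siNeg, and 7.00 and 6.92 in Control. Its difference from siNeg was 0.16 ± 0.12 (adjusted p = 0.363), and the mean of both CARS1 probe sets was still called at 0.27 (adjusted p = 0.0142). At 6 and 24 h the WARS1 values given above are those of 200629_at alone. At 6 h 200628_s_at had 7.61 and 7.58 in siMPS1, 7.45 and 7.29 in siNeg, and 7.68 and 7.70 in Control. At 24 h it had 7.17 and 7.34 in siMPS1, 7.31 and 7.58 in siNeg, and 7.39 and 7.13 in Control. In siMPS1 it was thus below Control at 6 h and on average below siNeg at 24 h.

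**Figure D4:**
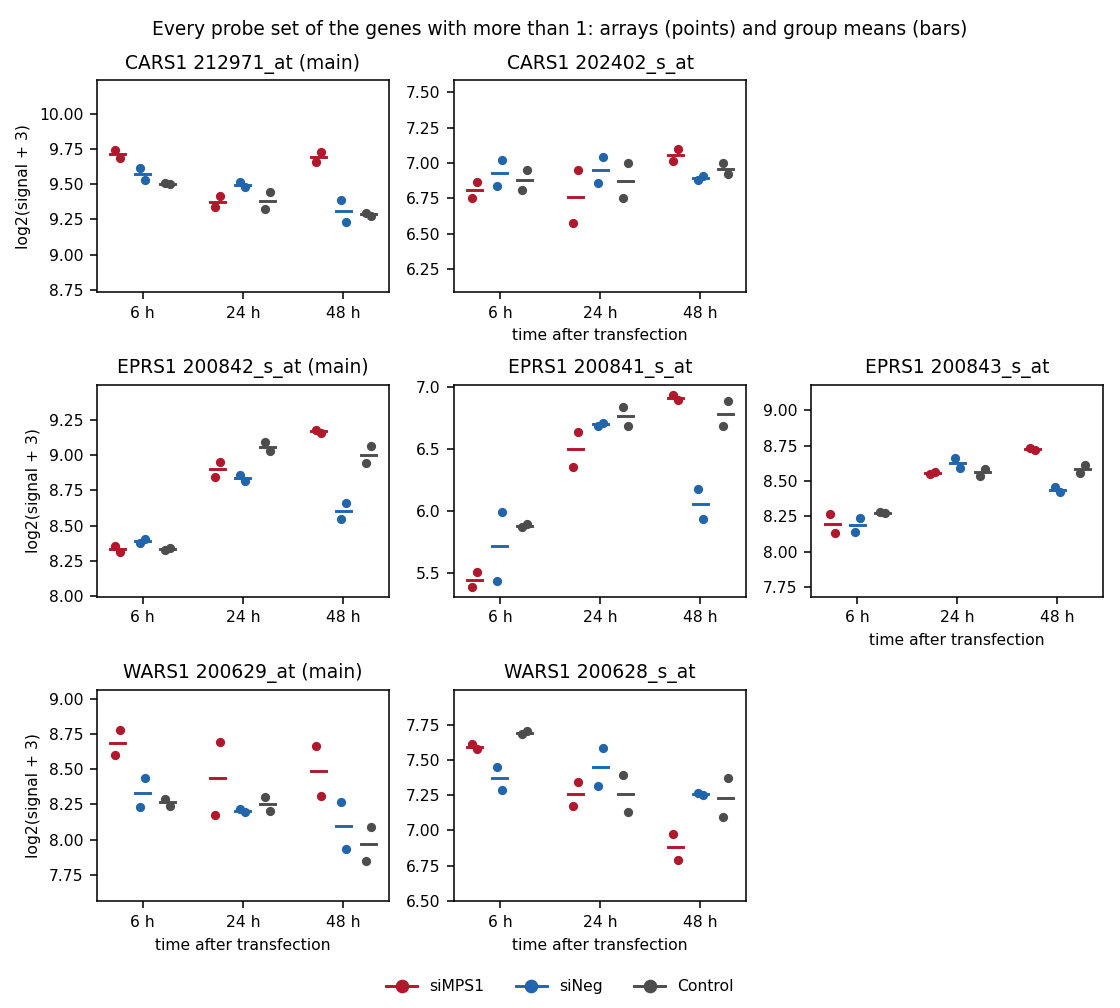
Level as log2(signal + 3) of every probe set of CARS1, EPRS1 and WARS1 at 6, 24 and 48 h, with 1 point per array, a bar at the mean of the 2 arrays, and siMPS1, siNeg and Control from left to right at each time. At 48 h siMPS1 is above siNeg in all 3 EPRS1 panels, and it is above siNeg on average in 1 WARS1 panel and below it in the other.

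The 9 genes did not move as a block across the 18 arrays. Over pairs of them Pearson's r of the log2 values ran from -0.88 for NARS1 and SARS1 to 0.89 for EPRS1 and NARS1, as a description over arrays that share their treatments and times. The mean of the 9 centred profiles was 0.22 on both siMPS1 arrays of 48 h, the highest values of the 18, against 0.04 and -0.09 in siNeg and -0.05 and 0.02 in Control at 48 h. The genes outside the set whose values correlated best with that mean were ARCN1 (r = 0.93), a coatomer subunit, ILRUN (0.89), MON1B (0.87), a subunit of an activator of the GTPase RAB7, and the dynein-associated NUDC (0.86) and its relative NUDCD3 (0.86), each over 18 arrays. ARCN1 itself had 8.44 and 8.57 in siMPS1, 8.11 and 7.96 in siNeg, and 8.05 and 8.11 in Control at 48 h, with siMPS1 above the rest. Within the set r with the mean ran from -0.33 for IARS1 to 0.68 for AARS1.

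Of 11 other cytosolic synthetases 7 were measured, and at 48 h 1 was called higher and 1 lower in siMPS1 than in siNeg, close to the shares over all genes of 15.7% higher and 13.5% lower. HARS1, the histidine enzyme, had 8.63 and 8.71 in siMPS1, 8.37 and 8.47 in siNeg, and 8.41 and 8.30 in Control (0.25 ± 0.08 from siNeg, adjusted p = 0.024). FARSA, the alpha subunit of the phenylalanine enzyme, had 7.19 and 6.91 in siMPS1, 7.57 and 7.42 in siNeg, and 7.53 and 7.38 in Control (-0.45 ± 0.10, adjusted p = 0.00323). HARS1 differed from siNeg by -0.16 and 0.04 at 6 and 24 h, and FARSA by 0.38 (adjusted p = 0.035) and -0.16. The FARSA call at 6 h was lost without any 1 of the 4 arrays compared (0.0550 to 0.212), under median centring (0.0678), without the filter (0.0527) or the intensity trend (0.0813), and with the mean of its probe sets (0.20, adjusted p = 0.214). HARS1 lost its 48 h call without siMPS1 replicate 2 or siNeg replicate 1 (difference 0.21 in each). It also lost it under median centring (0.23, adjusted p = 0.0728) and without the intensity trend (adjusted p = 0.0561). FARSA lost its 48 h call without siMPS1 replicate 2 (-0.31) or with the mean of its probe sets (-0.15, adjusted p = 0.278).

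AIMP1, the 1 of 3 scaffold genes measured, was lower in siMPS1, with 8.77 and 8.71, against 9.02 and 8.95 in siNeg and 9.05 and 8.95 in Control. The difference was -0.24 ± 0.07 from siNeg (adjusted p = 0.0103) and -0.26 ± 0.07 from Control (adjusted p = 0.00702), and the call against siNeg was lost without siMPS1 replicate 2 (0.0788) or siNeg replicate 1 (0.0811). Of 17 mitochondrial synthetases 9 were measured, with 1 called higher (CARS2, 0.69 ± 0.25, adjusted p = 0.0435) and 3 lower than in siNeg (NARS2 -0.44 ± 0.15, HARS2 -0.30 ± 0.10 and WARS2 -0.43 ± 0.15), and a median of -0.21, beside 15.7% of all genes higher and 13.5% lower. HARS2 differed from siNeg by -0.35 at 6 h and -0.36 at 24 h (adjusted p = 0.0455 and 0.0292), but both calls were lost without any 1 of the 4 arrays compared (0.0524 to 0.368 and 0.0627 to 0.205). At both times they were also lost without the intensity trend and when the fit held just the compared groups, and at 6 h under quantile normalization, without the filter, and without any 1 of the siNeg arrays of 24 h or the Control arrays of 24 and 48 h (0.0561 to 0.0563). None of the 4 was called against Control at 48 h. Each of the 4 calls was lost without 1 or more of the 48 h siMPS1 or siNeg arrays. Of 28 refits (alternative settings and fits without 1 array), 24 kept the call of HARS2, 23 that of NARS2, 17 that of CARS2 and 14 that of WARS2. Leaving out single arrays of 6 or 24 h also cost CARS2 and WARS2 their calls. Without siMPS1 48 h replicate 2 the CARS2 difference fell from 0.69 to 0.29. Of 5 elongation factors 3 were measured and EEF1D, a nucleotide exchange subunit, was called higher (0.37 ± 0.10, adjusted p = 0.00649). That call was lost without siNeg replicate 1 (0.26) and with the mean of its probe sets (0.08, adjusted p = 0.729). At 6 h the EEF1D difference from siNeg was negative and not called in the reported fit. It was called lower under quantile normalization (-0.34, adjusted p = 0.0303) and with the dimmest 60% left out (-0.30, adjusted p = 0.0498).

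Among 16 measured genes of 19 listed as regulators and targets of the amino acid response, 1 was called higher and 1 lower in siMPS1 than in siNeg at 6 h, 0 higher and 6 lower at 24 h, and 8 higher and 2 lower at 48 h. The shares over all genes were 3.45% and 4.25%, 5.14% and 5.81%, and 15.7% and 13.5%. Leaving out 1 array gave 1 to 2 calls at 6 h, 3 to 6 at 24 h (3 without siNeg 24 h replicate 1) and 8 to 11 at 48 h. Among the arrays whose loss left 1 call at 6 h were siMPS1 replicate 2 and both siNeg replicates of that time. The transcription factor DDIT3 (CHOP) had 8.01 and 7.92 in siMPS1, 6.94 and 6.76 in siNeg, and 7.73 and 7.53 in Control, a difference of 1.12 ± 0.09 from siNeg (adjusted p = 4.27e-08). The siNeg arrays stood well below both other groups. NUPR1, a stress-induced transcriptional regulator, was higher by 1.02 ± 0.13, the transcription factor ATF3 by 0.77 ± 0.09 and CEBPB, a partner of ATF4, by 0.55 ± 0.05 (adjusted p = 1.22e-05, 4.28e-06 and 6.47e-07). Their differences from siNeg at 6 and 24 h were 0.02 and -0.20 for DDIT3, 0.29 and -0.23 for NUPR1, -0.09 and -0.52 for ATF3 and -0.04 and -0.14 for CEBPB, of which the ATF3 value at 24 h was called (adjusted p = 0.000973). ATF4 itself, singled out after its values were seen, had 10.16 on both siMPS1 arrays, 9.68 and 9.69 in siNeg, and 9.77 and 9.90 in Control (0.48 ± 0.06 from siNeg, adjusted p = 1.55e-05, and 0.32 ± 0.06 from Control, adjusted p = 0.000947).

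Against Control the same list had 3 genes called higher and 4 lower in siMPS1 at 48 h, and siNeg minus Control had 1 higher and 8 lower, where the shares over all genes were 15.3% and 12.2%, and 6.82% and 6.11%. DDIT3 was 0.33 ± 0.09 higher than in Control (adjusted p = 0.00779), whereas CEBPB (0.10), NUPR1 (0.31) and ATF3 (-0.21) were not called. In siNeg minus Control all 4 were called lower, at -0.78 for DDIT3, -0.45 for CEBPB, -0.71 for NUPR1 and -0.98 for ATF3. The comparisons share arrays, so these are the same siNeg values seen from both sides.

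All 15 genes listed for amino acid transport and synthesis were measured, with 5 called higher and 3 lower than in siNeg at 48 h and 2 higher and 4 lower than in Control. Over all genes 15.7% were higher and 13.5% lower than in siNeg, and 15.3% and 12.2% than in Control. At 6 h 1 of the 15 was called higher and 2 lower than in siNeg, beside 3.45% and 4.25% of all genes. At 24 h 0 were called higher and 2 lower, beside 5.14% and 5.81%. PSAT1, the aminotransferase of serine synthesis, had 6.84 and 6.18 in siMPS1, 8.11 on both siNeg arrays, and 8.08 and 7.95 in Control. It was lower by 1.60 on the log2 scale than in siNeg (-1.60 ± 0.14, adjusted p = 1.66e-07), and it was called lower at 6 h (-0.52, adjusted p = 0.0298) and 24 h (-0.70, adjusted p = 0.00312) too. The 6 h call was lost without siMPS1 replicate 2 (0.204), siNeg replicate 1 (0.102) or siNeg replicate 2 (0.167), without the filter (0.0535) and without the intensity trend (0.0922). The transporter SLC38A2 was higher by 0.45 ± 0.05, the transporter heavy chain SLC3A2 by 0.42 ± 0.08 and the mitochondrial serine hydroxymethyltransferase SHMT2 by 0.29 ± 0.06 (adjusted p = 6.06e-06, 0.000929 and 0.00269). The SHMT2 call was lost with the mean of its probe sets (0.20, adjusted p = 0.0869). At 6 h SHMT2 was also called higher than in siNeg (0.30). That 6 h call was lost without siMPS1 replicate 2 (0.30) or siNeg replicate 2 (0.26). It was also lost without the intensity trend (adjusted p = 0.0570) and with the mean of its probe sets (0.18, adjusted p = 0.239). Against Control, SLC38A2 (0.07) and SLC3A2 (0.06) were not called and SHMT2 was (0.44, adjusted p = 8.08e-05).

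**Figure D5:**
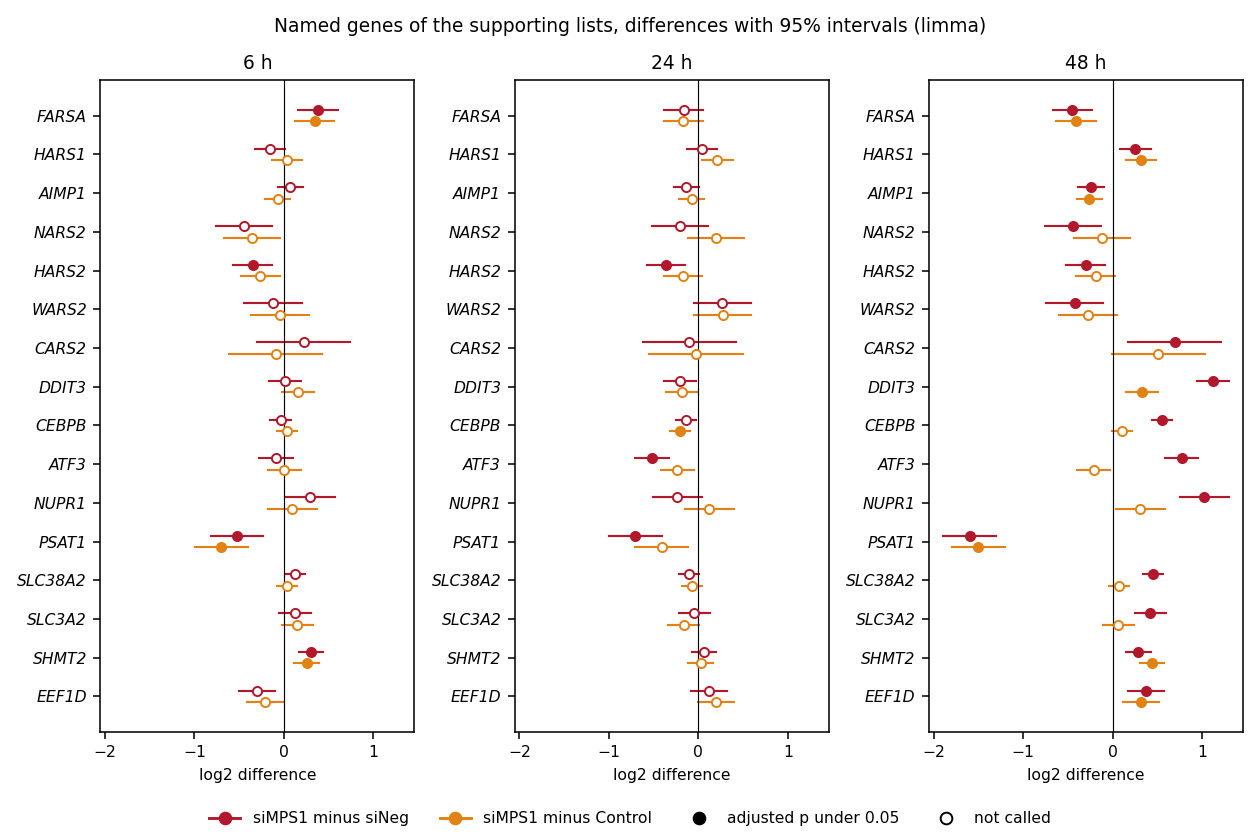
Log2 differences of named genes from the supporting lists for siMPS1 minus siNeg and siMPS1 minus Control at 6, 24 and 48 h, as points with 95% confidence intervals from the limma fit, filled where the adjusted p was under 0.05. At 48 h DDIT3 stands at 1.12 from siNeg and 0.33 from Control, ATF3 at 0.77 and -0.21, and PSAT1 at -1.60 and -1.50.

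The promoter motif and the 48 h differences can be set side by side. Of the 5 measured genes with TGATGNAA in an entry, AARS1, CARS1 and NARS1 were called higher in siMPS1 than in siNeg, while GARS1 (0.17) and IARS1 (-0.02) were not. Of the 3 genes without it, EPRS1 was called higher, and WARS1 and SARS1 were not called. YARS1, called higher at 0.42, had no promoter entry. Over all genes tested 15.7% were called higher and 13.5% lower. The share among all genes with the motif was not computed, and a link between motif and difference was not tested.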

How the data were processed

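The deposited table of 18 arrays holds log2 values that the authors made with MAS5, per the submitters' processing notes. The log2 scale was inferred from the values, which returned trimmed means (2% at each end) of 100.122 to 100.134 on the linear scale in every array. Per the labels, 250 ng of total RNA was labelled. Raw array files were not used here.

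Of 22215 probe sets other than controls, 19064 named 1 gene in the platform annotation, 1043 several and 2108 none. Of the former, 19052 matched RefSeq by identifier. The dimmest 40% by mean were left out, and the brightest probe set of each gene was kept, leaving 7828 genes. Group means were fitted to log2(signal + 3) with limma 3.58.1 in R 4.3.3 (9 residual degrees of freedom, prior 8.57, intensity trend), with Benjamini-Hochberg adjustment within each comparison. The fit was tested on simulated data. The number of arrays limits the precision.

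The listed genes, supporting lists, tests and alternatives were chosen with earlier results of these data known. Named were TTK, every listed synthetase, the 4 genes of each supporting list with the smallest p among those called in siMPS1 minus siNeg at 48 h, and the 5 genes most correlated with the synthetases' mean. Alternatives were pseudocounts of 1 and 11, quantile normalization, median centring, other filters, the mean of a gene's probe sets, no intensity trend, a replicate block, only the compared groups, and leaving out each array.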

Additional observations from a re-analysis of the deposited data

Results flagged for a closer look

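For 5 synthetases the difference between siMPS1 and siNeg changed between times by a limma test of the change itself (adjusted p under 0.05). From 24 to 48 h the change was 0.50 for EPRS1, 0.50 for CARS1, 0.35 for GARS1 and 0.32 for NARS1 on the log2 scale. From 6 to 48 h it was 0.62 for EPRS1 and -0.36 for SARS1. From 6 to 24 h it was -0.28 for SARS1, the least stable of the 7, since only 5 of 10 alternative settings and 5 of 18 fits without 1 array kept it.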

How the results depend on the processing

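Of the counts of called synthetases, those that moved by more than 1.5 times were as follows. Without the intensity trend, siMPS1 minus siNeg gave 0 at 6 h (1 in the reported fit) and 3 at 48 h (5), siMPS1 minus Control 0 at 6 h (1), Control from 24 to 48 h 0 (2), and the change of siMPS1 minus siNeg from 6 to 24 h 0 (1). Its probe set counts were then 0 at 6 h (1) and 5 at 48 h (8). Under quantile normalization, siMPS1 minus siNeg gave 2 at 24 h (0, and 2 probe sets against 0), siMPS1 minus Control 2 at 24 h (0), and the change from 6 to 24 h 2 (1). Median centring gave 1 for siMPS1 minus Control at 24 h (0), 2 for siNeg minus Control at 6 h (0), 3 for siNeg from 24 to 48 h (6) and 0 for the change from 6 to 24 h (1). It shifted the median of all genes by -0.19 in siMPS1 minus Control and -0.15 in siNeg minus Control at 6 h, by 0.10 and -0.16 from 6 to 24 h in siMPS1 and Control cells, and by 0.14 from 24 to 48 h in Control cells. With no filter, siMPS1 minus Control at 6 h and the change from 6 to 24 h gave 0 (1 each). With the dimmest 60% left out, siMPS1 minus Control at 6 h gave 2 (1) and siNeg minus Control at 48 h 2 (1). The mean of a gene's probe sets gave 0 for siMPS1 minus Control at 6 h (1). With only the compared groups it gave 2 (1), and Control from 24 to 48 h 1 (2). Causes were not tested.

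With 1 array left out, siMPS1 minus siNeg gave 0 to 1, 0 to 2 and 3 to 6 called synthetases at 6, 24 and 48 h, and 0 to 1, 0 to 1 and 5 to 9 probe sets. The 48 h minima of 3 and 5 came without siNeg 48 h replicate 2. For siMPS1 minus Control the ranges were 0 to 2, 0 to 2 and 3 to 4, and for siNeg minus Control 0 to 0, 0 to 0 and 1 to 2. From 6 to 24 h they were 7 to 8 in siMPS1, 5 to 7 in siNeg and 6 to 7 in Control cells, and from 24 to 48 h 3 to 6, 2 to 6 and 0 to 2. For the change of siMPS1 minus siNeg they were 0 to 2 from 6 to 24 h, 2 to 5 from 24 to 48 h (2 without siNeg 24 h replicate 1) and 2 to 3 from 6 to 48 h. Over all genes, calls in siMPS1 minus siNeg ranged from 80 to 684 at 6 h (603), 361 to 864 at 24 h (857) and 1655 to 2359 at 48 h (2284).

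No called synthetase or TTK difference changed sign in any setting: of 5040 values recomputed, 4849 stayed on their side of the threshold, 135 lost a call and 56 gained one. Same-numbered arrays did not deviate together (1 of 36 pairs of groups had r over 0.1, range -0.14 to 0.10). The main fit therefore did not pair arrays by number, although this check cannot show whether same-numbered arrays were handled together. With the replicate block, the change from 6 to 24 h went to 0 calls (SARS1, adjusted p = 0.0506), and the other synthetase counts stayed within 1.5 times.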
